A study of Mus musculus with 3 samples.

Results

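Interferon-responding T cells were picked out of a pool of tumour-infiltrating lymphocytes by the RNA of 4 interferon-induced genes. A cell was taken where Cd3e, a subunit of the T cell receptor complex, had at least 1 UMI (a counted RNA molecule) and Ifit1, Ifit3, Isg15 and Rsad2 together had at least 15 UMIs. Of 14113 Cd3e-positive cells, 1263 met this rule, which is 8.95%, among 19912 cell barcodes in the matrix. They were set against the 8999 Cd3e-positive cells with a sum of 2 or less, called low-sum cells here. The 3851 cells with a sum of 3 to 14 lay between. The members were thus chosen by the measured UMIs of these 4 genes, so every difference in RNA between members and low-sum cells is a description with no test.

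The study used single-cell RNA sequencing from the 5′ end, joined to DNA-tagged surface probes, on T cells from mouse tumours. C57BL/6 mice carried subcutaneous MC38-Ova tumours (a colon carcinoma line) or B16-Ova tumours (a melanoma line), both made to carry ovalbumin, and tumours were taken on day 14. Cells sorted as TCRβ+, CD3+, CD90.2+ and CD11b- were marked with a hashtag antibody for their tumour and run together in 1 capture. The tags were antibodies to PD-1 and Tim-3 and, by way of biotin, to the lectin L-Pha, which attaches to branched N-glycans. Each tumour was thus 1 pool of cells from a number of mice that the labels do not give, so neither tumour had a replicate, and all differences between them compare these pools. The MC38-Ova pool held 7870 Cd3e-positive cells, with a median of 6609 RNA UMIs, and the B16-Ova pool held 6243, with a median of 6383. Intervals are 95% and cover counting error only, not differences between mice or single cells that hold many UMIs of a gene.

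Interferons are secreted proteins that warn cells of infection. Type I interferons signal through the receptor Ifnar1 and Ifnar2 to factors that include Stat2 and Irf9, which bind a promoter element named ISRE, whereas interferon-γ signals through Ifngr1 and Ifngr2. The induced genes block viral translation, replication and release, raise antigen presentation and end the signal again. In tumours the same genes are known from immune, stromal and cancer cells.

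The promoters of the 4 genes that chose the cells are shown because they can be searched for the ISRE, the element named above, followed by Cxcl10, a chemokine gene given as a marker of these cells, and Gbp2, a GTPase gene induced by interferon-γ. Each is the 250 bases before the transcription start in RefSeq on GRCm38.p6, written 5′ to 3′ on the strand of the gene, with every match of GAAANNGAAA, the core of the ISRE, or its reverse complement, in capitals. Matches may overlap, as they do in Isg15.
Ifit1 (chr19:34640639-34640888, plus strand): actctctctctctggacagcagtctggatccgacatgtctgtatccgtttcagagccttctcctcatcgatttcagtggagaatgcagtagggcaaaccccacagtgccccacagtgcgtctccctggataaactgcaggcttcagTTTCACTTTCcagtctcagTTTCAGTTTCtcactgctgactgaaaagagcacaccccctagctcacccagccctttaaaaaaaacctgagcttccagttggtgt
Ifit3 (chr19:34583279-34583528, plus strand): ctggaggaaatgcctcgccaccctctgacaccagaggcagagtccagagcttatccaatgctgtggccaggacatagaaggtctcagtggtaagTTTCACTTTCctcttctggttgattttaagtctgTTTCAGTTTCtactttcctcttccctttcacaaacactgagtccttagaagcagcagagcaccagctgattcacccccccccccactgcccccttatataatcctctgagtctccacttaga
Isg15 (chr4:156200819-156201068, minus strand): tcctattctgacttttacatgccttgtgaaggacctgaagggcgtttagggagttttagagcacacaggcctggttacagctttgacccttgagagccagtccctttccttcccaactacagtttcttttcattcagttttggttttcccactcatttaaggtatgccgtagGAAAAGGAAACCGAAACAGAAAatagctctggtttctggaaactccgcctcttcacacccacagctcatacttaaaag
Rsad2 (chr12:26456453-26456702, minus strand): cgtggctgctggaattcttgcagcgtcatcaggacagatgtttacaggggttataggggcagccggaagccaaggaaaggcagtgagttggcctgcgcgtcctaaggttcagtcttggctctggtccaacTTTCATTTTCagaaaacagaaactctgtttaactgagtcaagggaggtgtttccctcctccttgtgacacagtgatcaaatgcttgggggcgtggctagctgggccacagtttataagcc
Cxcl10 (chr5:92348890-92349139, minus strand): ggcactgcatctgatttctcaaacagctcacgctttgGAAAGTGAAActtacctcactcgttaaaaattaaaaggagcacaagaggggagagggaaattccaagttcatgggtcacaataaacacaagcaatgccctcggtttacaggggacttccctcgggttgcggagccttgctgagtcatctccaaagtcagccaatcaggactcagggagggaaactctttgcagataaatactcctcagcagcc
Gbp2 (chr3:142620413-142620662, plus strand): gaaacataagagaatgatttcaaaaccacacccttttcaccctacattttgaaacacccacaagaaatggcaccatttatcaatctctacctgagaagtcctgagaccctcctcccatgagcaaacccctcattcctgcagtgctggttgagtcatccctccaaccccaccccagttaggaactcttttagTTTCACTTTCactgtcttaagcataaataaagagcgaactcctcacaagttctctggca

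The match closest to the start lay 85 bases before it in Ifit1, 122 in Ifit3, 66 in Isg15, 120 in Rsad2, 213 in Cxcl10 and 59 in Gbp2, counted to the first base of the match. Isg15 held 3 matches in a row, and Ifit1 and Ifit3 held 2 each. Of all 32851 promoter windows in the RefSeq table, 2.98% held a match on either strand. Among the 334 genes that were at least 2-fold higher in members (below), 258 had a window and 47 of these held a match, which is 18.2%, beside 291 of 8554 windows (3.40%) for all genes counted. All 4 rule genes, 9 of the 10 interferon-γ GTPase genes with a window and 12 of 39 antiviral effector genes held one, as did 3 of 16 MHC class I pathway genes. A match is a run of letters, not a shown binding site.

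The cells carried T cell RNA and the chosen marker genes at high levels. The 8 T cell markers (Cd3 subunits, T cell receptor constant regions and Thy1) summed to 4719 CPM (UMIs per 1000000 RNA UMIs) in MC38-Ova members and 4821 CPM in B16-Ova members, against 5203 and 5126 CPM in low-sum cells. Isg15 held most of the sum that chose the cells, 63.0% in MC38-Ova and 60.7% in B16-Ova members. It had a median of 17 UMIs per MC38-Ova member (range 1 to 113) and 16 per B16-Ova member (range 1 to 84).

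Ifit1, whose protein binds viral RNA that lacks the host cap, had a median of 4 UMIs in MC38-Ova and 3 in B16-Ova members, and at least 1 UMI in 89.2% and 88.3% of them. Ifit3, its partner, had a median of 3 UMIs in both tumours. Rsad2, which encodes viperin, had a median of 1 UMI and a UMI in 72.1% and 72.5% of MC38-Ova and B16-Ova members. All 4 genes were present together in 561 of 947 MC38-Ova members (59.2%) and 189 of 316 B16-Ova members (59.8%), while 21 and 4 members carried 1 of the 4 genes alone. Ifit3 and Ifit3b, and Ifit1 and Ifit1bl1, are close copies, so reads may be split between them.

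The sum was a continuum with no gap at 15. Cells just inside, with a sum of 15 to 17, numbered 179 in MC38-Ova and 57 in B16-Ova and held 160 and 142 CPM of Ifit1. Cells just outside, with a sum of 12 to 14, numbered 243 and 90 and held 129 and 90.4 CPM of Ifit1. Isg15 was at 853 and 649 CPM just inside and 749 and 541 CPM just outside.

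Since the rule counts raw UMIs, it took cells with much RNA. Members had a median of 11028 RNA UMIs in MC38-Ova and 10805.5 in B16-Ova, against 5270 and 5704 in low-sum cells. Low-sum cells were therefore weighted within each tumour to the members' mix of CD8, CD4 and Foxp3 status and of RNA depth. All CPM of low-sum cells and all ratios from here on use these weights unless stated.

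Other cell types were also part of what the members held. Markers of macrophages, such as Lyz2 and the C1q genes, summed to 319 CPM in MC38-Ova and 208 CPM in B16-Ova members, against 41.0 and 35.9 CPM in unweighted low-sum cells. At least 3 UMIs of this list were in 64 of 947 and 18 of 316 members. Fibroblast and endothelial markers were at 288 and 20.4 CPM in MC38-Ova and B16-Ova members, against 25.4 and 22.8 CPM in unweighted low-sum cells. At least 3 UMIs of this list were in 46 and 3 members. Melanoma markers were at 267 and 523 CPM in members, against 36.4 and 77.0 CPM in unweighted low-sum cells, with 3 UMIs in 14 and 5 members. In weighted low-sum cells melanoma markers were at 28.6 CPM in MC38-Ova and 231 CPM in B16-Ova. The B cell gene Ms4a1 had no UMI in any member, and neutrophil and mast cell markers summed to under 1 CPM.

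The share of cells with 3 UMIs of any of 5 lists (macrophage, dendritic, melanoma, carcinoma, fibroblast) went up with the sum in MC38-Ova, being 3.12% at a sum of 0 to 2, 12.1% at 15 to 29 and 19.9% at 30 or more. In B16-Ova it was 2.59%, 10.2% and 4.50% in the same bins. Leaving those cells out removed 145 MC38-Ova and 26 B16-Ova members. Values without them, a filter chosen after seeing the data, stand beside the results as values without foreign markers. They left 117 genes at least 2-fold higher, of 10629 counted (1.1%), of which 107 were also among the 334.

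Interferon-responding cells made up a larger part of the MC38-Ova pool than of the B16-Ova pool, and did so in each status, among them Foxp3-positive cells, the regulatory T cells. They were 12.03% (947 of 7870, exact interval 11.3 to 12.8) of MC38-Ova cells and 5.06% (316 of 6243, 4.53 to 5.63) of B16-Ova cells. The difference was 6.97 percentage points (Newcombe interval 6.07 to 7.87), a ratio of 2.38. Without foreign markers the shares were 10.8% and 4.83%, a difference of 6.02 points (5.12 to 6.91).

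Status was read from RNA: CD8 cells had Cd8a or Cd8b1 without Cd4 and Foxp3, CD4 cells had Cd4 alone, and Foxp3+ cells had Foxp3 without Cd8a and Cd8b1. Foxp3+ cells were members in 15.8% (140 of 885) of MC38-Ova and 4.13% (31 of 750) of B16-Ova cases, a difference of 11.7 points (8.88 to 14.5) and a ratio of 3.83. CD8 cells were members in 8.24% (243 of 2950) and 3.42% (72 of 2105), a difference of 4.82 points. CD4 cells were members in 8.67% (60 of 692) and 5.43% (38 of 700), a difference of 3.24 points (0.548 to 5.99). The CD4 difference was the smallest of these statuses, and without foreign markers its interval held 0 (7.51% against 5.51%, a difference of 2.00 points, -0.640 to 4.69).

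Cells with CD8 RNA and also Cd4 or Foxp3, which can hold more than 1 cell, had shares of 20.1% (429 of 2133) in MC38-Ova and 9.32% (163 of 1748) in B16-Ova. These were above the other statuses before the sum was set to equal depth. They made up 45.3% of MC38-Ova and 51.6% of B16-Ova members, against 18.4% and 21.98% of unweighted low-sum cells. Cells with none of the 4 status genes had 6.20% (75 of 1210) and 1.28% (12 of 940), a ratio of 4.86. Before the sum was set to equal depth this was above the ratio of Foxp3+ cells.

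Shares differed with depth within each tumour. Over 5 equal bins of cells by RNA depth, from shallow to deep, the MC38-Ova share was 2.57%, 7.21%, 9.76%, 13.1% and 28.7%. The B16-Ova share was 1.03%, 3.43%, 4.05%, 6.64% and 9.89% in the same bins, so MC38-Ova was higher in each of the 5.

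After each cell was thinned to 3000 RNA UMIs, with 6 UMIs of the 4 genes as the limit, 11.5% of MC38-Ova and 4.90% of B16-Ova cells passed, leaving out 1061 and 834 shallower cells. Among thinned Foxp3+ cells the shares were 19.8% and 4.63%, among CD4 cells 13.1% and 8.21%, and among CD8 cells 9.75% and 3.96%. Thinned cells with none of the 4 status genes had 9.76% and 4.93%, a ratio of 1.98, below the 4.29 of thinned Foxp3+ cells. Thinned cells with CD8 RNA and also Cd4 or Foxp3 had 11.1% and 5.04%. Their share was then below that of Foxp3+ and CD4 cells in MC38-Ova and of CD4 cells in B16-Ova. Thinning was applied to the sum of the 4 rule genes, while status was still read from all UMIs of a cell. The order of the statuses is thus not a comparison at equal depth. With status called from at least 3 Cd8a and Cd8b1 UMIs, 2 Cd4 UMIs or 2 Foxp3 UMIs, a cut chosen after seeing the data, Foxp3+ shares were 20.2% and 4.39%, a difference of 15.8 points, and cells with CD8 RNA and also Cd4 or Foxp3 had 29.04% and 13.1%, a difference of 15.96 points.

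**Figure D1:**
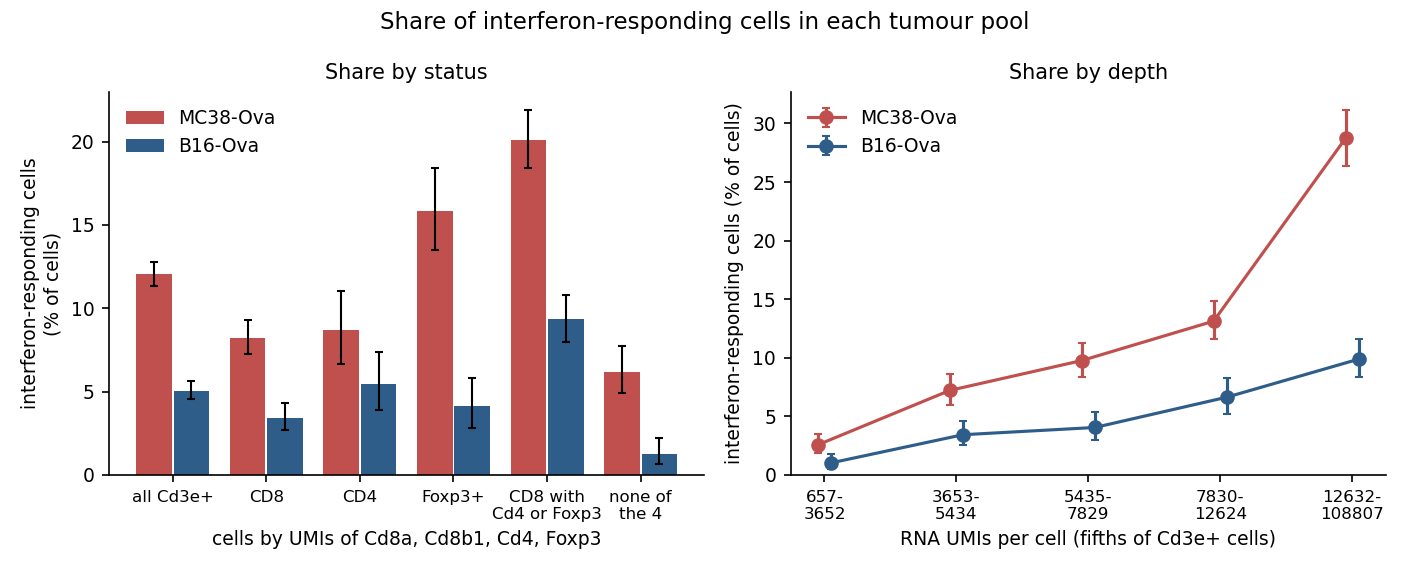
Bars give the percentage of cells that met the interferon rule in the MC38-Ova and B16-Ova pools for all Cd3e-positive cells and by status (left), and points give it over 5 bins of RNA UMIs per cell (right); lines are exact 95% binomial intervals. The MC38-Ova share was above the B16-Ova share in each status and each bin, and the Foxp3+ bars stood at 15.8% and 4.13%.

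Of 11051 genes with at least 100 UMIs in the members and low-sum cells of both tumours, 334 (3.02%) were at least 2-fold higher in members in both tumours and 19 (0.172%) at least 2-fold lower. At a limit of 1.5-fold, 524 (4.74%) were higher and 87 (0.787%) lower. The median log2 ratio over all these genes was -0.02 in both tumours. These shares are the background for the list counts that follow, from which nothing is read about the lists since the rule used the same contrast.

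The 4 rule genes come first as the reference for size. Ifit1 was at 319 CPM in MC38-Ova members, against 6.16 CPM in low-sum cells, and at 259 against 4.01 CPM in B16-Ova. Isg15 was at 1313 against 57.4 CPM in MC38-Ova and 995 against 41.3 CPM in B16-Ova. Isg15 was the most abundant of the 4 in low-sum cells too, and its log2 ratio of 4.52 and 4.59 was the smallest of the 4.

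Antiviral effectors, the proteins that act on the virus itself, were higher as a group. Of 48 counted genes, 39 were at least 2-fold higher in both tumours and none lower, with a median log2 ratio of 1.60 in MC38-Ova and 1.65 in B16-Ova, and 39 were so without foreign markers (1.76 and 1.64). The median MC38-Ova member carried RNA of 33 of the 49 effectors in the file and the median B16-Ova member 32, against 19 in low-sum cells of both tumours.

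Mx1, a GTPase that traps viral particles, was at 69.5 CPM in MC38-Ova members, against 9.57 CPM in low-sum cells, and at 63.1 against 4.72 CPM in B16-Ova. Cmpk2, a mitochondrial nucleotide kinase that sits next to Rsad2 on chromosome 12, had log2 ratios of 2.74 in MC38-Ova and 3.91 in B16-Ova. Ifit3b stood at 4.72 and 4.81, and Slfn5, a member of the Schlafen family, at 2.65 and 3.01. All 4 genes were under 20 CPM in low-sum cells of both tumours.

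Bst2, or tetherin, which holds budding virus at the membrane, was abundant on both sides, at 788 against 253 CPM in MC38-Ova and 486 against 166 CPM in B16-Ova. In all, 9 genes of the list stayed under the 2-fold limit in at least 1 tumour, among them Ly6a (log2 ratio 0.76 in MC38-Ova and 0.54 in B16-Ova), which encodes Sca-1, and Ly6e (0.47 and 0.33). Ly6e, at 2037 against 1468 CPM in MC38-Ova, was abundant in both groups.

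Isg15 is a ubiquitin-like protein, and the enzymes that join it to targets moved with it. Ube2l6, the conjugating enzyme, was at 119 against 28.4 CPM in MC38-Ova and 91.5 against 33.8 CPM in B16-Ova. Herc6, the mouse ligase, had log2 ratios of 1.68 and 1.79. Usp18, which removes Isg15 again and also blocks the type I receptor, was at 158 against 18.4 CPM in MC38-Ova and 111 against 6.91 CPM in B16-Ova. In all, 4 of 5 genes were at least 2-fold higher in both tumours, and 5 of 5 without foreign markers, where the activating enzyme Uba7 joined them (1.22 and 1.06).

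Sensors of foreign nucleic acid split by kind. Of 10 counted, 6 were at least 2-fold higher in both tumours, among them the RNA helicases Ddx58 (RIG-I, 1.40 and 1.52) and Ifih1 (MDA5, 2.14 and 2.35) and Zbp1, a sensor of Z-form nucleic acid. Zbp1 was at 384 against 127 CPM in MC38-Ova and 304 against 93.5 CPM in B16-Ova. The DNA sensor cGAS (Mb21d1, 0.019 and 0.061), its adaptor STING (Tmem173, 0.26 and 0.094) and Mavs (-0.18 and -0.17), the adaptor of the RNA helicases, stayed within a log2 ratio of 0.3.

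RNA of type I and III interferons themselves was nearly absent. Of the 10 such genes listed, 9 had no UMI in any member, and Ifnb1 had 3 UMIs in 1 B16-Ova member. Ifng, the interferon-γ gene, was at 419 against 626 CPM in MC38-Ova (log2 ratio -0.58) and at 297 against 227 CPM in B16-Ova (0.39), so its ratio had opposite signs in the tumours. Among CD8 cells it was at 352 against 968 CPM in MC38-Ova (-1.46) and 357 against 241 CPM in B16-Ova (0.57). An Ifng UMI was in 46.9% of MC38-Ova and 58.3% of B16-Ova CD8 members, against 45.2% and 45.0% of unweighted CD8 low-sum cells. Of the Ifng UMIs of CD8 members, 1 cell held 19.4% in MC38-Ova and 1 cell held 30.1% in B16-Ova, which had 72 such members.

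Among the receptor chains, Ifnar1 (0.012 in MC38-Ova and 0.30 in B16-Ova), Ifnar2 (0.44 and 0.35) and Ifngr1 (0.11 and 0.13) differed by less than a log2 ratio of 0.5. Ifngr2, the other chain of the interferon-γ receptor, was at 10.9 against 2.75 CPM in MC38-Ova (1.99, counting interval 1.54 to 2.46) and 6.85 against 5.86 CPM in B16-Ova (0.23). Without foreign markers its log2 ratios were 0.71 and -0.20. Stat2, the factor used by type I but not type II receptors, was the 1 gene of 12 in this list past 2-fold in both tumours, at 76.5 against 21.5 CPM in MC38-Ova and 49.9 against 18.3 CPM in B16-Ova. Irf9, its DNA-binding partner, had ratios of 0.48 and 0.65.

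Irf7, which amplifies type I interferon production, was the 1 regulatory factor of 8 past 2-fold, at 318 against 75.7 CPM in MC38-Ova and 215 against 43.2 CPM in B16-Ova. Irf1 had log2 ratios of 0.41 and 0.37 and Irf8 of -0.33 and -0.30. Of the 7 brakes of the pathway, Usp18 was past 2-fold and Socs1, which inhibits the Jak kinases, had 0.76 in MC38-Ova and 0.64 in B16-Ova.

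Guanylate-binding and immunity-related GTPases, which attack the vacuoles of intracellular pathogens and are classic targets of interferon-γ, were also higher. Of 16, 10 were at least 2-fold higher in both tumours and 16 had positive ratios, with medians of 1.43 in MC38-Ova and 1.09 in B16-Ova. Against unweighted low-sum cells 7 of these 16 and 34 of the 48 antiviral effectors passed 2-fold in both tumours, beside 337 genes over all. Gbp2 was at 216 against 79.2 CPM in MC38-Ova and 212 against 65.8 CPM in B16-Ova. Iigp1 was at 139 against 28.97 CPM in MC38-Ova (log2 ratio 2.27, 2.03 to 2.51) and 97.2 against 41.6 CPM in B16-Ova (1.22, 1.05 to 1.40). Tgtp1 and Tgtp2 are near-identical, so their values are uncertain.

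MHC class I and its loading machinery, already high in all T cells, differed little. Of 20 genes, 19 had positive ratios in both tumours, with medians of 0.36 and 0.31, and 1, the non-classical H2-T24, was past 2-fold. H2-K1 was at 4204 against 3527 CPM in MC38-Ova and 3952 against 3446 CPM in B16-Ova, and the peptide pump Tap1 had 0.53 and 0.34.

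Cxcl10, which draws Cxcr3-bearing T cells, was past 2-fold in both tumours with and without foreign markers. It was at 339 against 48.5 CPM in MC38-Ova (2.81) and 375 against 34.9 CPM in B16-Ova (3.43), and 50.8% of MC38-Ova and 62.0% of B16-Ova members carried a UMI, against 18.2% and 19.8% of weighted low-sum cells. Without foreign markers its log2 ratio was 2.56 and 3.52. Cxcl9, Ccl2 and Ccl7 also passed 2-fold in both tumours, but without foreign markers Cxcl9 stood at 0.98 and -0.76 and Ccl2 at -0.86 and -0.62. Ccl7 stood at 1.60 (0.46 to 2.73) and 1.31 (-0.70 to 2.89) without them, still past 2-fold but on 14 UMIs in MC38-Ova and 4 UMIs in B16-Ova members. The ratios of these 3 genes were smaller when cells with foreign markers were left out, among them those with macrophage and fibroblast markers, and what these cells contributed was not tested.

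**Figure D2:**
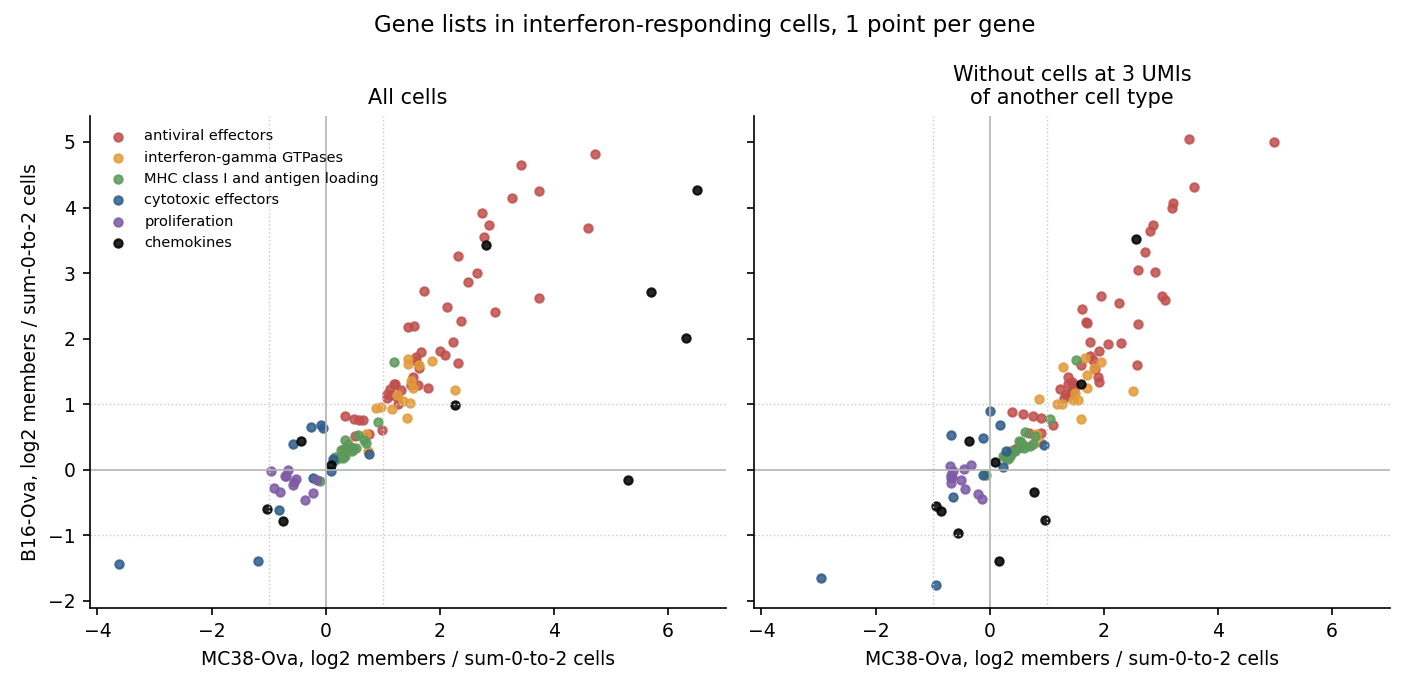
Each point is 1 gene of 6 lists, with the log2 ratio of members to low-sum cells in MC38-Ova on the horizontal axis and in B16-Ova on the vertical axis, for all cells (left) and without cells at 3 UMIs of another cell type (right); dotted lines mark 2-fold. Antiviral effectors and interferon-γ GTPases lie in the upper right of both panels, MHC class I genes lie near medians of 0.36 and 0.31, and Cxcl9, Ccl2 and Ccl7 have smaller ratios in the right panel.

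T cell programmes differed less than the interferon genes. Cd274, which encodes PD-L1 and is itself induced by interferon, was the 1 of 12 checkpoint genes past 2-fold, at 87.5 against 41.9 CPM in MC38-Ova and 82.1 against 37.8 CPM in B16-Ova. Against unweighted low-sum cells its log2 ratios were 0.79 and 0.84. Pdcd1, which encodes PD-1, had -0.08 and -0.29, and Havcr2, which encodes Tim-3, had -0.59 and -0.53. None of the 10 naive and memory genes, 11 activation genes or 11 regulatory T cell genes passed 2-fold in both tumours.

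Some effector genes were lower, and for several the direction in B16-Ova depended on which cells were kept. Gzmf, a granzyme of strongly activated killer cells, was at 14.5 against 177 CPM in MC38-Ova (-3.62) and 74.7 against 203 CPM in B16-Ova (-1.44), and Gzmc had -1.19 and -1.39. Without foreign markers Gzmf stood at -2.96 and -1.65 and Gzmc at -0.94 and -1.76. Unweighted low-sum cells held 49.9 CPM of Gzmf in MC38-Ova, 23.9% of it in 1 cell, and 142 CPM in B16-Ova. In MC38-Ova 31 of 947 members and 118 of 4364 low-sum cells had a Gzmf UMI. In B16-Ova 18 of 316 and 216 of 4635 did. For Gzmc these were 146 and 349 cells in MC38-Ova and 57 and 370 in B16-Ova. The share of cells with a UMI, not matched for depth, was thus not lower in members. Perforin (Prf1, -0.82 and -0.61), the chemokines Ccl3 (-1.03 and -0.61) and Xcl1 (-0.75 and -0.77) and Tnfsf11, the ligand RANKL (-0.97 and -0.92), were lower by less. Without cells over 1 UMI of other cell types, a stricter filter, the B16-Ova ratio was positive for Gzmf (0.71), Gzmc (0.88), Xcl1 (0.62) and Ccl3 (0.59), while the MC38-Ova ratios stayed negative. Against low-sum cells with a sum of 0, Prf1 had 0.062 in MC38-Ova. Tnfsf11 had negative ratios in both tumours under each of these settings. Gzmc, Gzme and Gzmf share sequence, so reads may be split among them. Gzmb, the main granzyme, differed little over all members (0.12 and 0.16).

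Proliferation genes depended on how depth was treated. Against weighted low-sum cells 11 of 12 had negative ratios in both tumours, with medians of -0.61 in MC38-Ova and -0.17 in B16-Ova. Against unweighted low-sum cells the medians were 0.31 and 0.28. Mki67 was at 77.5 against 122 CPM in MC38-Ova with weights and against 66.4 CPM without. No direction is given for this list.

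Levels rose in steps with the sum of the rule genes. Summed over the list, antiviral effectors in MC38-Ova were at 10922, 14776, 17392, 18867 and 21085 CPM in cells with a sum of 0 to 2, 3 to 7, 8 to 14, 15 to 29 and 30 or more. In B16-Ova they were at 8673, 10791, 12276, 13602 and 16915 CPM. Usp18 was at 22.7, 44.6, 77.2, 115 and 211 CPM over the same bins in MC38-Ova and 10.8, 18.2, 46.0, 80.7 and 171 CPM in B16-Ova. Cells with a sum of 3 to 14 thus lay between low-sum cells and members for each of these. These bins are not weighted for depth.

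**Figure D3:**
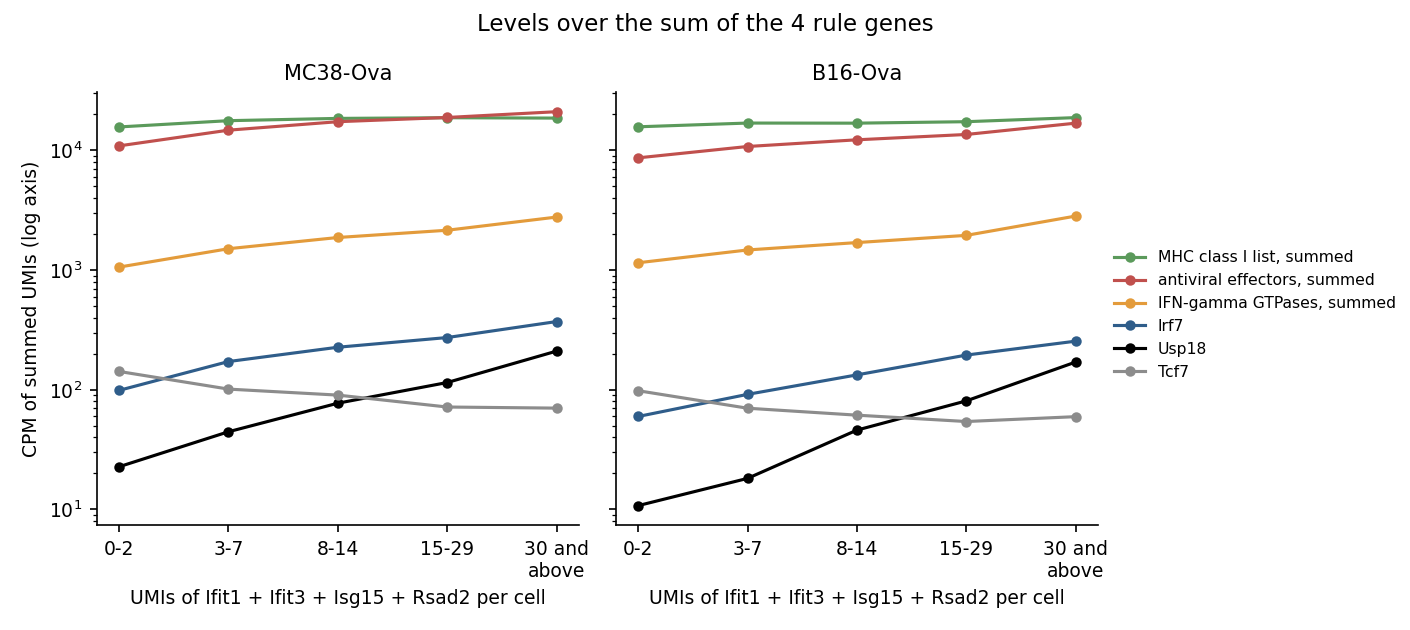
Lines give summed-UMI CPM on a log axis for 3 gene lists and 3 genes over bins of the sum of the 4 rule genes per cell, in MC38-Ova (left) and B16-Ova (right), unweighted. Usp18 and Irf7 rise over every bin, the MHC class I sum stays between 15721 and 18816 CPM, and Tcf7, a memory gene, is highest in the lowest bin.

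Interferon genes outside the rule varied from member to member. Across MC38-Ova and B16-Ova members, Spearman's rho of Usp18 CPM was 0.38 and 0.47 with Irf7, 0.068 and 0.26 with Gbp2 and 0.12 and 0.14 with Iigp1. Iigp1 and Ly6a had 0.36 and 0.31. These are descriptions across 947 and 316 cells, which share a library and were chosen by the sum of 4 related genes.

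In members of each T cell class most antiviral effectors and GTPases were at least 2-fold higher than in weighted low-sum cells. Members of each class were chosen by the RNA of interferon-induced genes. The counts that follow are thus a description and do not test whether a class responded. In CD8 members 37 of 45 antiviral effectors and 14 of 16 GTPases were at least 2-fold higher in both tumours, beside 237 of 9443 genes (2.51%) higher and 52 (0.551%) lower over all. In CD4 members 34 of 43 and 12 of 15 were, beside 96 of 5730 genes (1.68%) higher and 41 (0.716%) lower. In Foxp3+ members 33 of 44 and 10 of 15 were, beside 106 of 6822 (1.55%) higher and 47 (0.689%) lower. Against unweighted low-sum cells the counts were 37 of 45 and 14 of 16 in CD8 and 30 of 43 and 9 of 15 in CD4 members. In Foxp3+ members they were then 28 of 44 and 6 of 15, so most GTPases did not pass there. These counts of genes cannot be compared between classes, which differ in the number of cells.

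CD8 members led with Cxcl9, Ifit1, Ifit3, Rsad2, Cd63 and Ifit3b by the size of the weaker tumour's ratio, and CD4 and Foxp3+ members with Ifit1, Ifit3, Ifit3b, Rsad2, Isg15 and Mx1. Without foreign markers Cd63 stood at 6.43 against 5.89 CPM in MC38-Ova CD8 cells and had no UMI in B16-Ova CD8 members, and Cxcl9 had 2 UMIs in MC38-Ova and 1 UMI in B16-Ova CD8 members. Cxcl10 was at 329 against 35.1 CPM in MC38-Ova CD8 cells and 886 against 39.4 CPM in B16-Ova CD8 cells. It was at 472 against 39.4 CPM and 650 against 43.5 CPM in CD4 cells of MC38-Ova and B16-Ova, and at 403 against 121 CPM and 549 against 53.9 CPM in Foxp3+ cells.

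Iigp1 was more widespread in regulatory T cells. Of Foxp3+ members, 77.1% in MC38-Ova and 87.1% in B16-Ova carried a UMI, against 27.6% and 31.6% of unweighted Foxp3+ low-sum cells. Of CD8 members, 32.1% and 36.1% did, against 6.75% and 10.9%. The median depth was 8629 and 10061 RNA UMIs in Foxp3+ members and 8360 and 6792 in CD8 members, against 4505 and 5120.5 in Foxp3+ and 5891 and 6723 in CD8 low-sum cells.

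Gzmb, a serine protease that regulatory T cells in tumours also use, had a higher CPM in Foxp3+ members. It was at 4694 against 2369 CPM in MC38-Ova (log2 ratio 0.99) and 1404 against 671 CPM in B16-Ova (1.07). The values were 1.33 and 1.05 without foreign markers and 0.72 and 0.50 against unweighted Foxp3+ low-sum cells. A Gzmb UMI was in 94.3% of MC38-Ova and 74.2% of B16-Ova Foxp3+ members, against 83.7% and 76.4% of those low-sum cells. CD4 members had log2 ratios of 0.79 and 1.15, and CD8 members had -0.33 and 0.74. In these groups 1 cell held 38.1% of the Gzmb UMIs of MC38-Ova CD4 members and 1 cell 23.9% of those of B16-Ova CD8 members. The regulatory genes Ctla4 (0.36 and 0.19), Il2ra (0.26 and 0.24) and Ikzf2 (-0.0053 and -0.34) differed less in Foxp3+ cells.

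Cell-cycle genes in Foxp3+ members were lower with weights: 5 of 12 were at least 2-fold lower in both tumours, among them Top2a, at 50.03 against 182 CPM in MC38-Ova and 67.6 against 209 CPM in B16-Ova, and Pclaf (-1.50 and -2.11). In CD8 and CD4 members none of 12 and 11 were. Against unweighted Foxp3+ low-sum cells 1 of 12, Top2a, remained 2-fold lower (-1.21 and -1.11). A Top2a UMI was in 23.6% of MC38-Ova and 22.6% of B16-Ova Foxp3+ members, against 20.1% and 28.2% of those low-sum cells. The shares with a Pclaf UMI were 25% and 29.03% of members, against 11.03% and 17.1% of low-sum cells. For Mki67 they were 28.6% and 32.3%, against 18.7% and 23.3%. Pclaf and Mki67 were thus found in a larger share of members in both tumours. These shares were not matched for depth, which was greater in members.

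**Figure D4:**
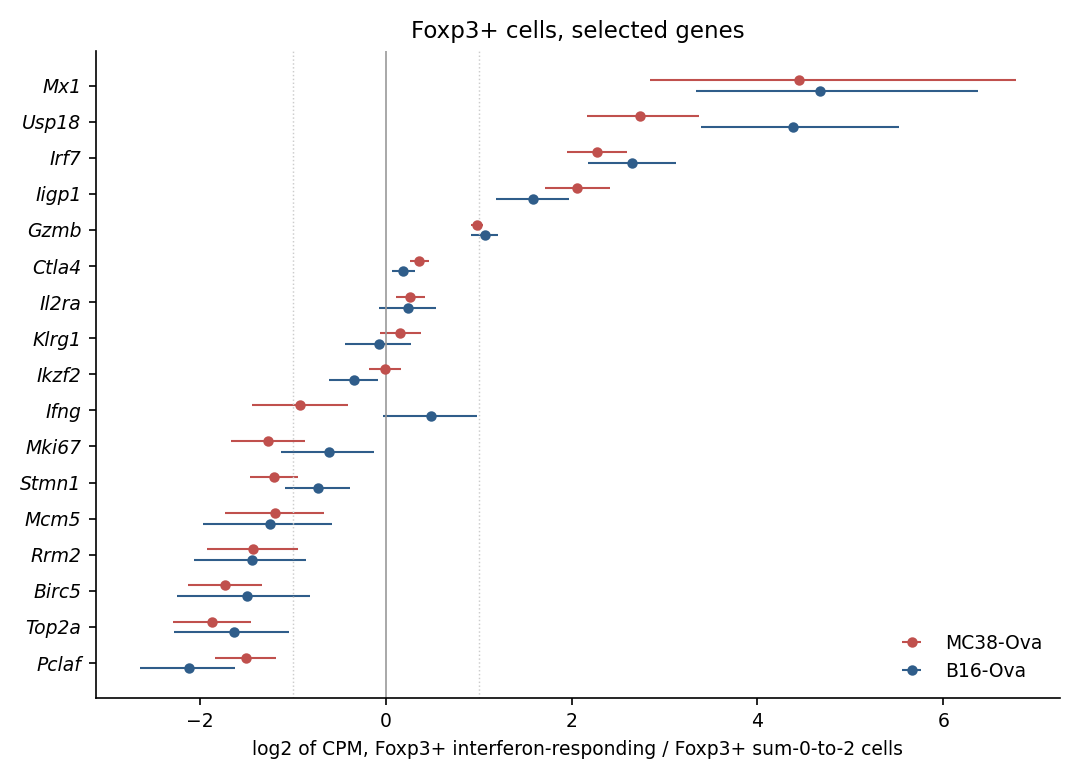
Points give the log2 ratio of CPM in Foxp3+ members to weighted Foxp3+ low-sum cells for 17 genes in MC38-Ova and B16-Ova, with exact 95% counting intervals; dotted lines mark 2-fold. Interferon genes are at the top and right, Gzmb stands at 0.99 and 1.07, and cell-cycle genes at the bottom lie to the left, an offset that is smaller without weights.

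Between members of the 2 tumours some antiviral effectors and no GTPase or MHC class I gene passed 2-fold. Members of both tumours were chosen by the same limit on 4 interferon genes, so levels of related genes are not independent of the rule. The counts below are a description, from which nothing is read about how alike the tumours are. Of 9082 genes with at least 100 UMIs, 266 (2.93%) were at least 2-fold higher in MC38-Ova than in B16-Ova members and 87 (0.958%) lower. Of 48 antiviral effectors, 4 were higher, Ifi44, Ifitm3, Phf11d and Ifi27l2a, and none lower, with a median log2 ratio of 0.31 in members and 0.44 in low-sum cells. Phf11d was at 14.6 CPM in MC38-Ova and 5.83 CPM in B16-Ova members, but without foreign markers it was at 4.10 and 4.82 CPM, on 41 and 23 UMIs, so neither its call nor its direction held. Without foreign markers Ifi44 was at 13.4 and 3.35 CPM, Ifitm3 at 280.3 and 122 CPM and Ifi27l2a at 5554 and 2423 CPM, each still over 2-fold. None of the 16 GTPases or 20 MHC class I genes passed 2-fold.

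Many genes with the largest ratios between tumours are known from fibroblasts and macrophages. Col3a1, a collagen, had 1675 UMIs in MC38-Ova members, found in 39 of 947 cells, and 5 UMIs in B16-Ova members, and Fbn1, Col6a1, Klra4, Cd34, Arg1, Dcn, Col6a2, Htra1 and Tpm2 followed. Lower in MC38-Ova were Cck, with 310 of 347 B16-Ova UMIs in 1 cell, Mgll, Spp1, Gstp2, Gzmf, Hspa1a, Cited1, Penk, Nrgn and Ptgds, with 1123 of 1435 UMIs in 1 cell.

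Without foreign markers the order was led by genes that differed between the tumours' low-sum cells as well, apart from Il2. Ifitm1, an interferon-induced membrane protein, was at 175 CPM in MC38-Ova and 20.1 CPM in B16-Ova members (log2 ratio 3.12), and the ratio in low-sum cells was 3.68. Ifitm2 had 1.85 in members and 2.44 in low-sum cells, the natural killer receptor gene Klra7 had 2.02 and 1.32, and the adaptor Tyrobp had 2.41 and 1.74. Osteopontin (Spp1) was at 8.49 CPM in MC38-Ova and 96.8 CPM in B16-Ova members, a ratio of -3.51 in members and -3.28 in low-sum cells. Il2 went the other way in low-sum cells, with -1.48 in members and 2.81 in low-sum cells.

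Surface tags were not used by the rule. L-Pha binding was higher on MC38-Ova members than on their weighted low-sum cells and not on B16-Ova members. The median was 737 tag UMIs per cell (quartiles 391 and 1386) in MC38-Ova members, against 511 (314 and 907) in low-sum cells, a ratio of 1.44. In B16-Ova it was 745.5 (335 and 1951) in members, against 806 (352 and 1602) in low-sum cells, a ratio of 0.925. Quartiles overlapped widely in both tumours.

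The MC38-Ova ratio was 1.21 in CD8 cells, 1.38 in CD4 cells and 1.59 in Foxp3+ cells, where medians were 803.5 in members against 504.2 in low-sum cells. In B16-Ova the same ratios were 1.11, 0.940 and 1.04. Scaled to the cell's own hashtag UMIs the MC38-Ova ratio was 1.09 and the B16-Ova ratio 0.858; the hashtag does not read glycans. Mgat5, the enzyme that makes the branch that L-Pha binds, had log2 RNA ratios of 0.00 and 0.17, and none of 7 branching genes passed 2-fold.

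Over all statuses, PD-1 and Tim-3 medians lay within 1 tag UMI of each other in members and low-sum cells. PD-1 had a median of 22 UMIs in MC38-Ova members, against 21 in low-sum cells, and 23.5 against 24 in B16-Ova. Tim-3 had 23 against 22 in MC38-Ova and 24 against 24 in B16-Ova. By status some medians lay 2 or 3 UMIs apart. CD8 members had a PD-1 median of 21 against 18 in MC38-Ova and 17 against 19 in B16-Ova, and a Tim-3 median of 19 against 21 in B16-Ova. Foxp3+ members in B16-Ova had a PD-1 median of 24 against 21. Without a test these medians do not show that the levels were equal.

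**Figure D5:**
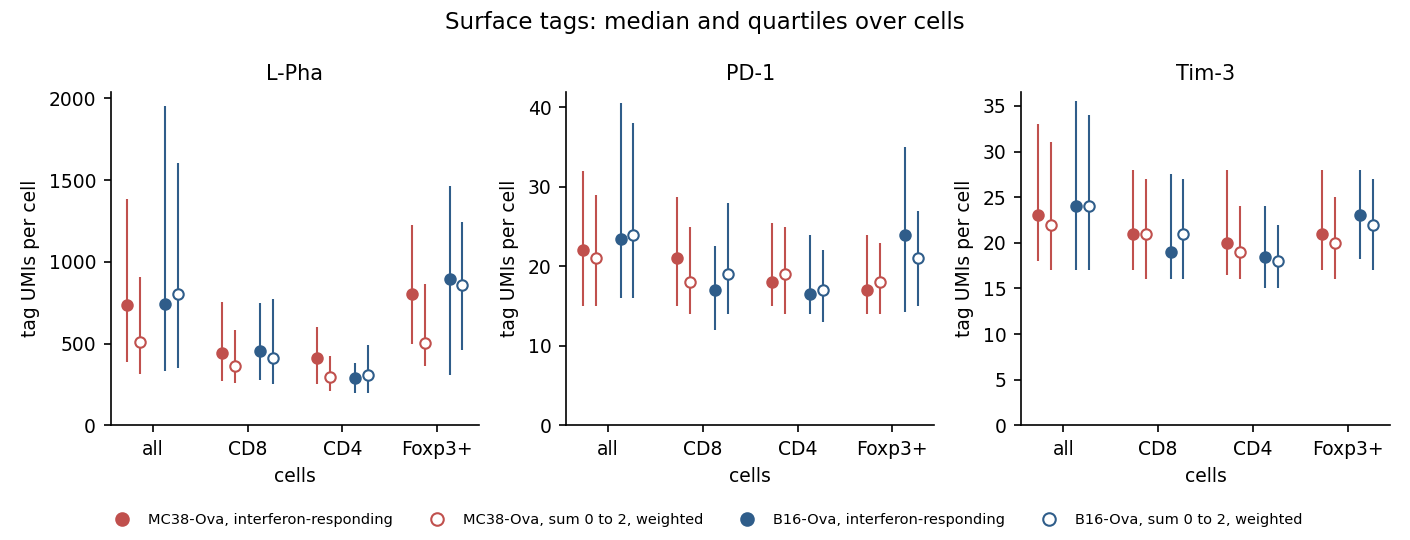
Points give median tag UMIs per cell and lines the quartiles for L-Pha, PD-1 and Tim-3 in members (filled) and weighted low-sum cells (open), by tumour and status. L-Pha medians of MC38-Ova members lie above their low-sum cells in each status, and quartile ranges overlap throughout.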

How the data were processed

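Droplet single-cell 5′ RNA libraries and tag libraries of 1 capture were analysed from 1 deposited matrix of raw UMI counts per gene or tag and cell barcode. Counting used Cell Ranger 3.1.0 on mm10, and Seurat 3.1.0 in R 3.6.1 is also named, per the submitters' processing notes; the deposited matrix header names software version 3.0.2. The annotation release is not given in the sources used here. Cells had at least 500 genes, at most 10% mitochondrial UMIs, and a larger hashtag of at least 150 UMIs and 3 times the other; 14992 of 19912 barcodes passed, and 3045 that passed the gene and mitochondrial limits held both hashtags at 150 or more.

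Members and gene lists were chosen with earlier results of these data known. UMIs were summed per tumour and group and scaled to CPM. Low-sum cells were weighted by status and by 5 bins of the members' RNA UMIs, and 12 members without a matching cell were matched by depth alone. Genes needed 100 UMIs in the sums, and 2-fold was the limit. With 1 pool per tumour no test was possible; intervals are exact (Clopper-Pearson for shares, conditional binomial for ratios) or Newcombe's for differences of shares. Genes outside the lists were named by size: the 12 largest ratios each way shared by both tumours, the 10 largest each way between tumours and the 6 largest per status, at 20 CPM or more. Doublets were not removed in the main analysis. Scrublet was an alternative, with removal set at 23.1% of MC38-Ova and 18.1% of B16-Ova cells from the number of barcodes with both hashtags. It removed 349 of 947 MC38-Ova members and 95 of 316 B16-Ova members, a larger share than of all cells, so some members may hold more than 1 cell. The calculation was tested on simulated data. Python 3.11.15, numpy 2.4.6, scipy 1.17.1, pandas 2.3.3, scanpy 1.11.5 and matplotlib 3.10.9 were used. Gene symbols shared by 71 IDs were kept as separate rows. T cell receptor libraries were not analysed here.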

Additional observations from a re-analysis of the deposited data

Results flagged for a closer look

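Il2, the T cell growth factor gene, had a log2 ratio of members to low-sum cells of -1.44 in MC38-Ova and 3.82 in B16-Ova, opposite directions in the tumours, and the difference was not tested; 260 of the 274 Il2 UMIs of B16-Ova members were in 1 cell. Tm4sf1, a surface gene of endothelial and tumour cells, stood at 5.65 in MC38-Ova and -1.75 in B16-Ova, also opposite and not tested; its UMIs were in 44 MC38-Ova members, and 183 of 300 in B16-Ova low-sum cells were in 1 cell.

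Cells without a Cd3e UMI lie outside the comparisons, and 7.45% of them in MC38-Ova (40 of 537) and 0.292% in B16-Ova (1 of 342) also had 15 or more UMIs of the 4 rule genes. Of the Cd3e-positive barcodes with both hashtags at 150 UMIs or more, 14.4% (432 of 3003) did. Whether these barcodes hold cells of both tumours was not tested. The hashtag rule sets no upper limit on the smaller hashtag, so some of them can also be among the cells kept for a tumour.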

How the results depend on the processing

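The share difference of 6.97 points stayed positive in every alternative run. It was 10.3 with a rule sum of 10 or more, 3.13 with 30 or more, 4.43 without cells over 1 UMI of other cell types, 5.68 without the highest Scrublet scores and 6.02 without foreign markers. The 334 higher genes numbered 147 without cells over 1 such UMI, 117 without foreign markers, 607 at 30 UMIs and 524 at 1.5-fold. The 19 lower genes numbered 9 and 43 at sums of 10 and 30, 120 without cells over 1 such UMI, 67 at 30 UMIs, 87 at 1.5-fold and 34 from means of per-cell CPM. Between tumours the 266 higher genes numbered 37 without cells over 1 such UMI, 71 without foreign markers, 641 at 30 UMIs and 565 at 1.5-fold, and the 87 lower genes numbered 40 at a sum of 30, 19 without cells over 1 such UMI, 180 at 30 UMIs and 315 at 1.5-fold.

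Against unweighted low-sum cells the tag ratios in MC38-Ova and B16-Ova were 2.30 and 1.97 (L-Pha tag), 1.29 and 1.31 (PD-1) and 1.21 and 1.20 (Tim-3). Per 1000 RNA UMIs Tim-3 in B16-Ova was 0.950. Per 100 hashtag UMIs L-Pha in MC38-Ova was 1.09, PD-1 in MC38-Ova 0.841, and Tim-3 0.889 in MC38-Ova and 0.820 in B16-Ova.

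Single genes that changed sign were mostly those of other cells. Without foreign markers these were Lyz2 (-0.20 in MC38-Ova), C1qb (-0.41 and -0.43 in MC38-Ova and B16-Ova), Ptgds (-0.58 and -1.10), Il1b (-1.17 in B16-Ova) and, between tumours, Col6a1 (-0.068), Cd34 (-1.07), Col6a2 (-2.07), Gstp2 (0.25) and Ptgds (1.10). Without cells over 1 UMI of other types they were Lyz2 (-0.29 in MC38-Ova), C1qc (-0.10 and -0.64), H2-Aa (-0.75 in B16-Ova), Ptgds (-0.78 and -0.48), in B16-Ova Gzmf (0.71), Gzmc (0.88), Xcl1 (0.62) and Ccl3 (0.59), and between tumours Dcn (-1.53), Col6a2 (-1.53) and Gstp2 (0.052). At a sum of 30 they were Ptgds (-1.79) and Ccl1 (0.56) in B16-Ova and, between tumours, Gstp2 (2.96) and Ptgds (6.29). Against unweighted low-sum cells Mad2l1 was 0.15 in MC38-Ova, and against cells with a sum of 0 Nrn1 was 0.47 and Prf1 0.062 in MC38-Ova. The cause was not tested. No paired analysis was possible because each tumour was 1 pool. The smallest groups, 31 Foxp3+ and 38 CD4 members in B16-Ova, limit what can be read from their genes, and UMI sums in them can rest on few cells.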

Other observations

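Without cells at 3 UMIs of another cell type, 117 genes were at least 2-fold higher in interferon-responding cells in both tumours. Of these, 65 belonged to an interferon-related list, beside 63 of the 334 over all cells. The lists include the genes of the rule that chose the cells. The share of list genes among all genes counted is not given, so nothing is read about the lists from these counts. Among the largest ratios outside the lists were Daxx, a histone chaperone, at 2.19 in MC38-Ova and 2.13 in B16-Ova, Phf11c at 1.99 in MC38-Ova, Phf11a at 2.31 and the DNA-binding Ifi200 family members Ifi214 and Ifi208 at 1.88 and 1.86 in MC38-Ova. Genes outside the lists that were lower included Mettl1, which methylates tRNA, at -1.28 in MC38-Ova and -0.68 in B16-Ova, Shmt2, a serine-glycine enzyme of mitochondria, at -1.04 and -0.57, and Nifk, a nucleolar protein, at -0.66 and -0.58. Over all cells and against unweighted low-sum cells, Mettl1 had -0.17 and -0.33 and Nifk -0.31 and -0.41. Shmt2 held 597 of 1.43861e+07 RNA UMIs in MC38-Ova members and 1071 of 2.79404e+07 in unweighted low-sum cells, so there it was not lower. In B16-Ova it held 255 of 5.83569e+06 and 1864 of 3.65528e+07, which was still lower.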
